A study of Mus musculus with 12 samples.

Results

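Corneodesmosin (Cdsn) and 9 genes of the desmosome (Dsp, Jup, Pkp1, Pkp2, Pkp3, Pkp4, Dsg2, Dsc2 and Dsc3) were followed across 12 expression arrays of C166 cells, an endothelial line derived from the mouse embryonic yolk sac. They are 10 of the 17306 probe sets tested, 1 per gene, chosen by name and matched through their Entrez numbers. The choice was made with group differences of these arrays in view, Cdsn for its rise in VEGF-up cells, so the values of the 10 genes are a description and carry no test of their own. The study compared expression in cells given shRNAs against the Vegfa promoter with that in cells given the vector without one. VEGF-up cells carried a lentiviral vector with GFP and an shRNA chosen to raise Vegfa, VEGF-down cells one with GFP and an shRNA chosen to lower it, and GFP cells the vector with GFP alone. Every group was transduced at 20% confluency with a multiplicity of infection of 10, received fresh medium at 72 h and was collected at day 7. There were 4 arrays per group, and nothing in the labels says whether they came from separate cultures, so the errors measure the spread between these samples, which may be technical.

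A desmosome is a spot-like junction that ties the intermediate filaments of neighbouring cells together. Its cadherins, the desmogleins and desmocollins, bridge the gap between cells. Inside the cell the armadillo proteins plakoglobin and the plakophilins bind the cadherin tails, and desmoplakin links them to keratin, vimentin or desmin filaments. Corneodesmosin is a secreted glycoprotein that is laid down on desmosomes of the outermost epidermis and is cut by proteases when cells are shed. Endothelial cells are known for junctions built on VE-cadherin rather than for classical desmosomes, though plakoglobin and desmoplakin occur there too.

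Levels are log2 array intensities from the authors' GCRMA summaries, and the array medians lay between 35.6 and 37.1 on the linear scale. The level below which a signal is called background here is 3.09 on the log2 scale, the 95th percentile of the mean levels of 69 chemosensory receptor probe sets, and 37.2% of probe sets averaged no more than that. Vegfa, the gene the shRNAs were aimed at, averaged 7.54 ± 0.16 in VEGF-up cells, 6.54 ± 0.06 in VEGF-down cells and 7.20 ± 0.11 in GFP cells (SD, n = 4 each). It was lower in VEGF-down than in GFP cells on every array (log2 difference -0.66 ± 0.08 SE, two-sided exact permutation p = 0.0286, the smallest that 4 arrays against 4 can give), while in VEGF-up cells it was higher by the limma fit (0.34 ± 0.08, limma adjusted p = 0.0134), also with each array left out, though the VEGF-up and GFP arrays overlapped (two-sided exact permutation p = 0.0571) and the call was lost with spike-in scaling (0.17, adjusted p = 0.1002). Of 12 endothelial markers, 9 were at or below background on every array of every group, among them Cdh5, which encodes VE-cadherin, and Pecam1, and 3 were above it on every array (Kdr, Flt1 and Esam). Flt1 and Esam were close to background, with means from 3.14 to 3.40 over the groups. Kdr, a VEGF receptor gene, averaged 5.47 ± 0.23 in VEGF-up cells, 8.30 ± 0.05 in VEGF-down cells and 4.96 ± 0.0019 in GFP cells (SD, n = 4 each), a rise in both shRNA groups (limma adjusted p = 0.00313 in VEGF-up and 6.33e-10 in VEGF-down cells). The endothelial list summed to 32.9 to 33.9 in VEGF-up cells, 35.9 to 36.1 in VEGF-down cells and 32.7 to 32.9 in GFP cells. Most defining markers of the labelled cell type were thus without signal, while Kdr was above background in every group. In GFP cells its arrays were as alike as those of Eng, which was below background (SD 0.0019 and 0.0027). Whether GFP cells express Kdr therefore cannot be told from its level there. Of 10 markers of simple epithelium and mesothelium, 7 were above background on every array, among them Msln, Upk3b, Wt1 and Lrrn4, while Cdh1, the E-cadherin gene, and Epcam were at or below it on every array. The summed log2 level of that list ran from 64.9 to 65.4 in VEGF-up cells, from 72.5 to 73.6 in VEGF-down cells and from 64.5 to 65.0 in GFP cells. In VEGF-down against GFP cells 5 of the 10 rose and 1 fell (60% changed, beside 31.0% of all probe sets). The largest rises were of Krt8 (3.46, GFP arrays below background), Msln (2.63) and Krt19 (1.97), and Lrrn4 fell (-0.55). In VEGF-up cells Krt19 (0.92) and Msln (0.39) rose and Krt7 (-0.65) and Lrrn4 (-0.36) fell (40%, beside 13.2%). The part of that list in the results below was not tested. Of 9 keratinocyte markers, 3 were above background on every array (Krt10, Krt14 and Trp63), and Krt5, Krt1, Lor and Dsc1 were at or below it on all. That list summed to 30.7 to 31.0 in VEGF-up cells, 32.3 to 34.1 in VEGF-down cells and 31.2 to 31.5 in GFP cells, and its part was not tested either. In VEGF-down against GFP cells Krt14 (0.89) and Trp63 (0.64) rose and Krt10 fell (-0.28), so 33.3% changed, beside 31.0% of all probe sets. Ivl was not called, and its VEGF-down arrays ran from 2.40 to 3.96 with a mean below background (3.05 ± 0.69 SD). In VEGF-up cells only Krt14 was called, and it fell (11.1%, beside 13.2%). Of 9 cardiac muscle markers, 2 (Tnnt2 and Myl7) were above background on every array, and the list summed to 33.1 to 33.6 in VEGF-up cells, 29.4 to 30.1 in VEGF-down cells and 34.5 to 35.1 in GFP cells. Tnnt2, which encodes cardiac troponin T, fell in both, by 0.88 in VEGF-up and 4.19 in VEGF-down cells on the log2 scale (limma adjusted p = 4.45e-05 and 9.17e-11). Of 4 blood cell markers, 1 (Cd68) was above background on every array, with sums of 12.4 to 13.0 in VEGF-up, 11.9 to 12.8 in VEGF-down and 12.8 to 13.3 in GFP cells. The part of the endothelial, cardiac and blood lists in the results below was not tested. In such bulk RNA, fewer cells of a type and less RNA per cell cannot be told apart.

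Cdsn was the member that differed most between the groups, and in opposite directions in the 2 shRNA groups. Its log2 level was 7.87, 7.92, 8.21 and 8.02 on the VEGF-up arrays. The VEGF-down arrays gave 4.83, 4.67, 4.79 and 4.69. On the GFP arrays the level was 6.27, 6.17, 6.37 and 6.28. All VEGF-up arrays thus lay above all GFP arrays, all VEGF-down arrays lay below them, and every value was above background. The group means were 8.0 ± 0.15 in VEGF-up cells, 4.75 ± 0.08 in VEGF-down cells and 6.27 ± 0.08 in GFP cells (SD, n = 4 each). VEGF-up cells exceeded GFP cells by 1.73 ± 0.07 on the log2 scale (SE of the limma fit), or 3.33-fold, the second largest difference in size of all 17306 probe sets. In VEGF-down cells the log2 difference from GFP cells was -1.52 ± 0.07, or 2.88 times lower, and ranked 106 by size. Set directly against each other, VEGF-up cells exceeded VEGF-down cells by 3.26 ± 0.07, or 9.56-fold, at rank 15. Both comparisons with GFP cells share the 4 GFP arrays, whereas the last one does not use them. The authors' deposited table for the VEGF-up shRNA lists Cdsn at a fold change of 3.26, and the authors' deposited table for the VEGF-down shRNA lists it at -2.82, where the minus sign means lower.

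**Figure D1:**
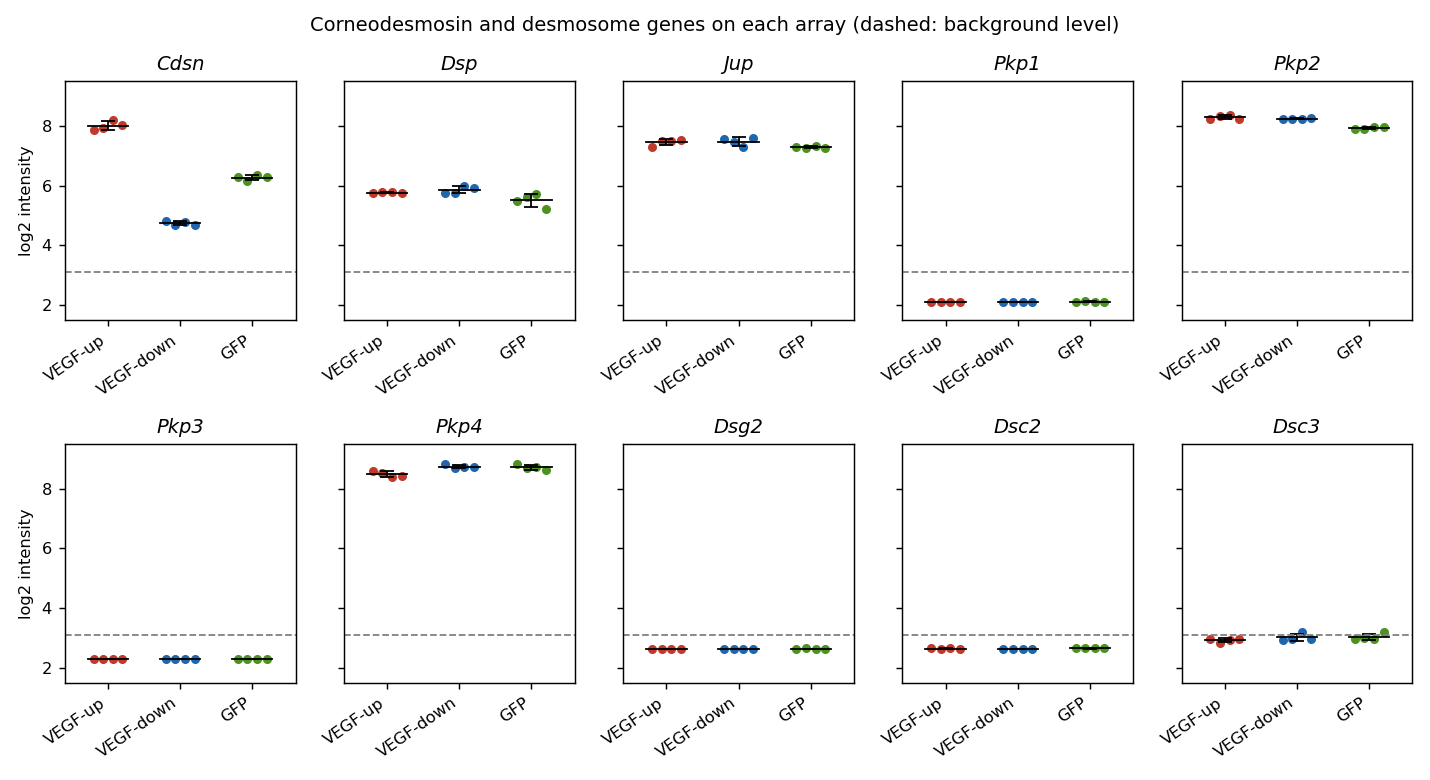
Log2 intensity of the 10 genes (vertical axes) on each array of the VEGF-up, VEGF-down and GFP groups. Points are arrays, horizontal bars and whiskers are the mean and SD of 4 arrays, and the dashed line is the background level of 3.09. The 3 groups separate fully for Cdsn, with means of 8.0 in VEGF-up, 4.75 in VEGF-down and 6.27 in GFP cells, and 4 genes lie below the line on every array.

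In the mouse genome Cdsn lies on chromosome 17 at 35543101 to 35557180 (GRCm38.p6), in the region of the major histocompatibility complex. Vegfa lies on the same chromosome at 46016993 to 46032377, 10.5 Mb away with 165 protein-coding genes between them. RefSeq lists 2 start windows for Cdsn on the plus strand, each from 250 bases before to 50 bases after a start. They are shown because Cdsn carries the largest differences among the 10 genes. Capitals mark CACCTG or its reverse complement CAGGTG, the E-box that transcription factors of the Snail and ZEB families bind.
Cdsn, first window, chr17:35542851-35543150, plus strand: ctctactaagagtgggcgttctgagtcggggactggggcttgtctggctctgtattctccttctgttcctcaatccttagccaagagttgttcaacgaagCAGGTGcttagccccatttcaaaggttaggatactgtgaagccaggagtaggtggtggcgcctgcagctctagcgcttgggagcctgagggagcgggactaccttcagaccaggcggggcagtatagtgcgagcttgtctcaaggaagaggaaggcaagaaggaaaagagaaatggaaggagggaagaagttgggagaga
Cdsn, second window, chr17:35551878-35552177, plus strand: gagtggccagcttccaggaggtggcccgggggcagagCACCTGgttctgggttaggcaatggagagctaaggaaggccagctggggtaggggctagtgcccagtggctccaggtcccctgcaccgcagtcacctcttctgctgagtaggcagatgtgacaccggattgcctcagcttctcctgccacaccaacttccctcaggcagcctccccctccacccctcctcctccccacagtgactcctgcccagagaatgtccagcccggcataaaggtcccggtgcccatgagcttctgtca
Each window holds 1 such E-box, 150 bases before the start in the first and 213 bases before it in the second. Of 32851 mouse windows of the same length, 20.2% hold CACCTG on either strand. Neither Cdsn window holds the TATA box TATAAA (13.6% of all windows, either strand), the GC box GGGCGG (35.7%) or CCAAT (37.4%). Of the 10 genes, 4 matched a window in the RefSeq promoter table (Cdsn, Dsp, Jup and Pkp4). The E-box also occurs once in the Dsp window and once in the second of the Pkp4 windows, and GGGCGG occurs 4 times in the Dsp window, 2 times in the Jup window and 6 times in the first Pkp4 window. A match of letters is a description and not a binding site.

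None of the measured neighbours of Cdsn was called higher in VEGF-up and lower in VEGF-down cells. Of the 5 measured protein-coding genes nearest to it on each side, 4 were at or below background in every group: Psors1c2, Pou5f1, H2-Q10 and 2300002M23Rik. Cchcr1, which encodes a centrosomal coiled-coil protein and is the second gene on the side of lower coordinates, was at -0.07 ± 0.04 in VEGF-up cells and -0.03 ± 0.04 in VEGF-down cells against GFP cells (log2, SE). Tcf19, next to it, fell in both, by 0.22 ± 0.05 in VEGF-up cells (limma adjusted p = 0.0116) and by 0.51 ± 0.05 in VEGF-down cells (limma adjusted p = 1.10e-05). On the other side, Vars2 and Gtf2h4 did not pass the test in either comparison. Ddr1, a collagen receptor gene, and the stress-response gene Ier3 rose in VEGF-down cells, by 0.48 ± 0.05 (limma adjusted p = 1.36e-05) and 1.16 ± 0.10 (limma adjusted p = 4.09e-06), the opposite direction to Cdsn. In VEGF-up cells they were at -0.10 ± 0.05 and -0.24 ± 0.10, short of the threshold (limma adjusted p = 0.191 and 0.143). With arrays scaled to poly-A spike-in controls, RNAs added before labelling, the rise of Ddr1 did not pass the test (0.17, adjusted p = 0.0777). Set directly against VEGF-down cells, VEGF-up cells had more Tcf19 (0.29 ± 0.05, limma adjusted p = 0.00074), the same direction as Cdsn. Ddr1 (-0.57) and Ier3 (-1.40) went the other way (limma adjusted p = 2.61e-06 and 7.09e-07).

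**Figure D2:**
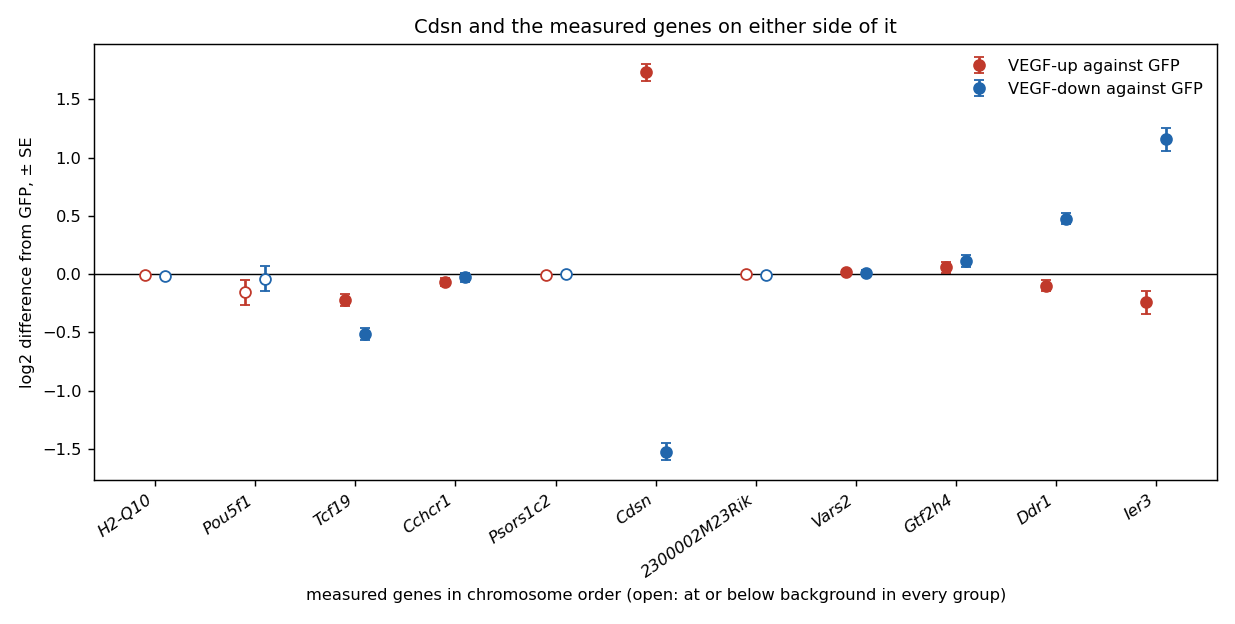
Log2 difference from GFP cells (vertical axis, points with the SE of the fit) of Cdsn and of the 5 measured genes on either side, in chromosome order along the horizontal axis, for VEGF-up cells and VEGF-down cells; open points are genes at or below background in every group. Cdsn stands at 1.73 in VEGF-up and -1.52 in VEGF-down cells, while Tcf19 is below 0 in both comparisons and Ddr1 and Ier3 are above 0 in VEGF-down cells.

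Genes whose pattern over the 12 arrays was most like that of Cdsn were found by the root mean square difference of log2 levels, each gene centred on its GFP mean, among 10384 other named genes above background. They were Chchd10 (0.54), a mitochondrial protein gene, Ptchd1 (0.58), the lipase inhibitor gene Angptl4 (0.63), the matrix metalloproteinase gene Mmp11 (0.64) and 5430416N02Rik (0.66), against a median of 1.34 over all genes compared. Each was higher in VEGF-up and lower in VEGF-down than in GFP cells, which the choice by likeness to Cdsn favours by construction. The median also depends on the size of the Cdsn differences, so it is no benchmark of likeness. Chchd10 averaged 5.88 ± 0.19 in VEGF-up cells, 3.80 ± 0.28 in VEGF-down cells and 4.97 ± 0.12 in GFP cells (SD, n = 4 each). For Mmp11 the means were 9.02 ± 0.08, 7.13 ± 0.11 and 8.34 ± 0.02 in the VEGF-up, VEGF-down and GFP groups. None of these 5 genes is a member or a gene of the junction lists.

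The 3 desmosomal cadherin genes among the members stayed at the bottom of the scale. Dsg2, the desmoglein found in all desmosome-bearing tissues, lay between 2.62 and 2.64 over the 12 arrays. Dsc2, the desmocollin with the same wide distribution, lay between 2.63 and 2.66. Both were below background on every array. Dsc3, a desmocollin of stratified epithelia, was at or below background on 10 of 12 arrays. It was 2.95, 2.81, 2.94 and 2.97 on the VEGF-up arrays, 2.94, 2.96, 3.21 and 2.96 on the VEGF-down arrays and 2.97, 2.99, 2.97 and 3.19 on the GFP arrays. The arrays above background were VEGF-down replicate 3 and GFP replicate 4. Dsc2 was called lower in VEGF-down than in GFP cells, with a log2 difference of -0.02 ± 0.01, but both groups are below background, so no fold is given. After quantile normalization the sign turned (0.0017, not called). The call was also lost with no variance trend, with only the 2 groups compared and with a replicate block. With an array left out it held in 3 of 8 fits. The other measured desmosomal cadherins, Dsg1a and Dsc1, which are not members, were also at or below background on all 12 arrays, at 2.82 to 3.05 and 2.41 to 2.59.

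The plakophilins, the armadillo proteins that cluster desmosomal cadherins, fell into those with signal and those without. Pkp1, a plakophilin of the upper epidermis, lay between 2.11 and 2.12 and Pkp3, of most epithelia, between 2.28 and 2.30 over all 12 arrays, below background in every group. Pkp2, the plakophilin of heart muscle and simple epithelia, was higher in both shRNA groups. Its log2 level was 8.24, 8.32, 8.37 and 8.24 on the VEGF-up arrays, 8.24, 8.24, 8.21 and 8.26 on the VEGF-down arrays and 7.91, 7.88, 7.95 and 7.94 on the GFP arrays. Both shRNA groups lay above all GFP arrays and overlapped each other. Against GFP cells Pkp2 differed by 0.37 ± 0.03 in VEGF-up cells, or 1.29-fold, and by 0.32 ± 0.03 in VEGF-down cells, or 1.25-fold (log2, SE). Between the shRNA groups the difference was 0.05 ± 0.03. With spike-in scaling Pkp2 was at 0.20 in VEGF-up and 0.01 in VEGF-down against GFP cells, and neither was called. Of the 9 cardiac markers only 2 were above background on every array. Tnnt2 fell in both shRNA groups, by -0.88 in VEGF-up and -4.19 in VEGF-down cells. Myl7 fell in VEGF-down cells (-0.73) and was not called in VEGF-up cells (-0.37, limma adjusted p = 0.126). Any link of these genes with Pkp2 was not tested. The authors' deposited table for the VEGF-up shRNA lists Pkp2 at a fold change of 1.31.

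Pkp4, which encodes a plakophilin-related protein found at adherens junctions as well as desmosomes, moved otherwise. It was 8.59, 8.52, 8.40 and 8.43 on the VEGF-up arrays, against 8.81, 8.68, 8.71 and 8.72 on the VEGF-down arrays and 8.83, 8.68, 8.70 and 8.61 on the GFP arrays. The VEGF-up arrays lay below every array of the other groups, which overlapped each other. The log2 difference was -0.22 ± 0.05 for VEGF-up against GFP cells, -0.24 ± 0.05 for VEGF-up against VEGF-down cells and 0.02 ± 0.05 for VEGF-down against GFP cells. The first of these passed the threshold with all arrays but not without VEGF-up replicate 3 or VEGF-up replicate 4, nor with only the 8 arrays of the groups compared. Over the 8 arrays left out in turn it ranged from -0.26 to -0.18.

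Jup encodes plakoglobin, which serves both desmosomes and adherens junctions. Its log2 level was 7.30, 7.49, 7.51 and 7.52 on the VEGF-up arrays, 7.57, 7.44, 7.28 and 7.60 on the VEGF-down arrays and 7.30, 7.27, 7.32 and 7.25 on the GFP arrays. Each shRNA group had 1 array within the GFP range, replicate 1 of VEGF-up and replicate 3 of VEGF-down. The log2 differences from GFP cells, 0.17 ± 0.07 in VEGF-up and 0.19 ± 0.07 in VEGF-down cells, did not pass the threshold. The second passed it without VEGF-down replicate 3 (0.25), after quantile normalization (0.20) and with only probe sets above background (0.19). Desmoplakin, the plakin at the inner face of the desmosome, is encoded by Dsp. It was 5.76, 5.78, 5.77 and 5.75 on the VEGF-up arrays, 5.75, 5.76, 5.99 and 5.93 on the VEGF-down arrays and 5.48, 5.63, 5.72 and 5.22 on the GFP arrays. All 8 shRNA arrays were above all GFP arrays, by little for the nearest ones, and the GFP arrays spread the most (SD 0.22, against 0.01 in VEGF-up and 0.12 in VEGF-down cells). Against GFP cells Dsp differed by 0.25 ± 0.10 in VEGF-up cells, which did not pass, and by 0.34 ± 0.10 in VEGF-down cells, which did. The call in VEGF-down cells was lost without VEGF-down replicate 3 or VEGF-down replicate 4, with only the 8 arrays compared and with spike-in scaling (0.04).

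**Figure D3:**
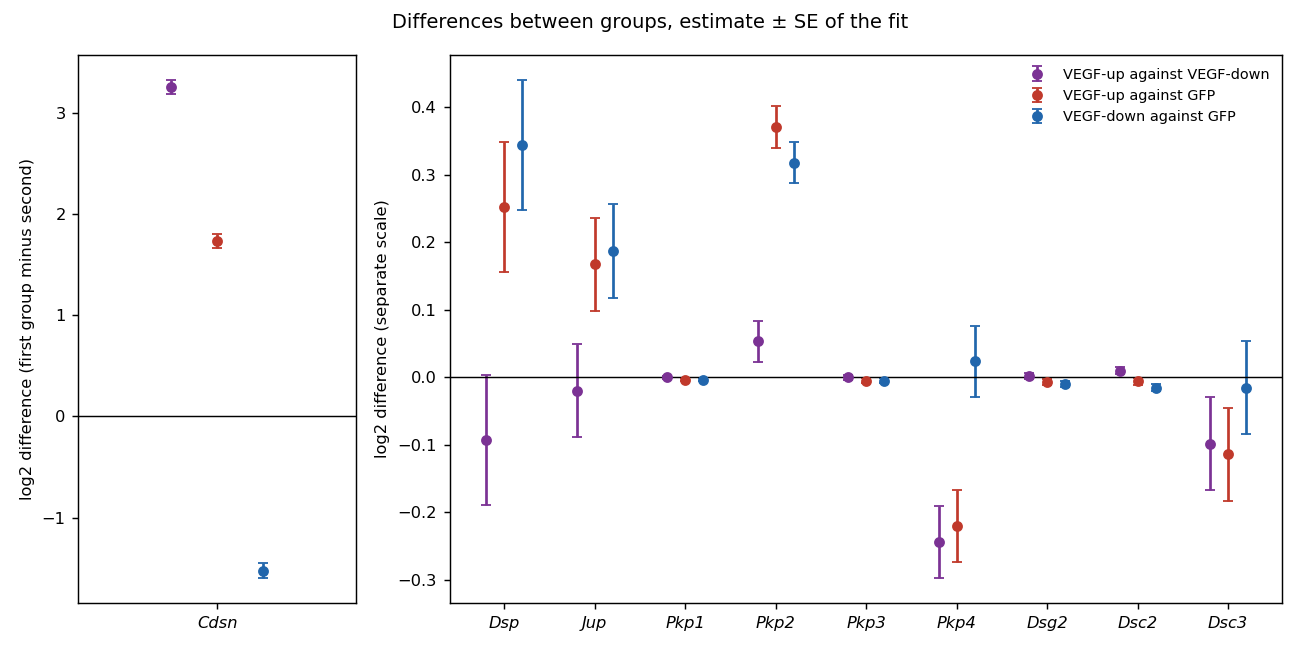
Log2 differences between groups with the SE of the limma fit (vertical axes) for Cdsn in the left panel and the other 9 genes in the right panel, on a separate scale. Cdsn differs by 3.26 for VEGF-up against VEGF-down, 1.73 for VEGF-up against GFP and -1.52 for VEGF-down against GFP cells, while no other member exceeds 0.37 in size; the points of Pkp1, Pkp3, Dsg2 and Dsc2 stand for probe sets below background.

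Counted together, 5 of the 10 genes were above background on every array, 4 were at or below it on every array and Dsc3 was on both sides. In VEGF-up against GFP cells, 2 members were called higher (Cdsn and Pkp2) and 1 lower (Pkp4) at an adjusted p under 0.05, beside 6.73% and 6.51% of all probe sets. For VEGF-down against GFP cells, 2 were called higher (Dsp and Pkp2) and 2 lower (Cdsn and Dsc2), beside 14.6% and 16.4% of all probe sets. Between VEGF-up and VEGF-down cells 1 was called higher (Cdsn) and 1 lower (Pkp4), beside 15.1% and 15.5%. Arrays of the groups compared did not overlap for 5, 4 and 2 members in these comparisons, beside 18.0%, 37.1% and 32.8% of all probe sets. Since the choice of members used these contrasts, nothing is read from the counts. The median log2 difference of the members was -0.00 in VEGF-up and -0.00 in VEGF-down against GFP cells, where that of all probe sets was -0.01 in both. Spike-in scaling moved the median of all probe sets to -0.18 in VEGF-up and -0.32 in VEGF-down against GFP cells, and to 0.14 between the shRNA groups. Relative to that shift Pkp2 was at 0.38 in VEGF-up and 0.33 in VEGF-down cells against GFP cells, and Dsp at 0.35 in VEGF-down cells. With no such correction Pkp2 was then at 0.20 in VEGF-up and 0.01 in VEGF-down cells and Dsp at 0.04 in VEGF-down cells, none of them called. Jup was at -0.00 in VEGF-up and -0.12 in VEGF-down cells, so its sign turned.

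Other genes of junctions and of the epidermis came from 6 lists, written with earlier results of these data known, with 108 measured genes. Of these, 7 rose and 13 fell in VEGF-up against GFP cells (18.5% changed, beside 13.2% of all probe sets), and 23 rose and 19 fell in VEGF-down against GFP cells (38.9%, beside 31.0%). Between VEGF-up and VEGF-down cells 9 rose and 26 fell (32.4%, beside 30.6%). Some of the falls in VEGF-down against GFP cells were of genes below background in both groups. No list was tested as a set.

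Among 11 measured desmosome and plakin genes outside the members, 6 rose and 0 fell in VEGF-down cells. Thus 54.5% changed, beside 31.0% of all probe sets, of which 14.6% rose. The median log2 difference of the list was 0.15, against -0.01 for all probe sets. In VEGF-up cells 2 rose and 0 fell by limma (18.2% changed, beside 13.2%), with a median of -0.00. At an unadjusted p under 0.05, 0 were lower in VEGF-up cells and 1 in VEGF-down cells (Ctnnd2, below background). Perp, a membrane protein of desmosomes and a p53 target, averaged 6.35 ± 0.02 in VEGF-up cells, 8.05 ± 0.09 in VEGF-down cells and 5.89 ± 0.13 in GFP cells (SD, n = 4 each). It rose 1.38-fold in VEGF-up cells (limma adjusted p = 0.000463) and 4.5-fold in VEGF-down cells (limma adjusted p = 8.71e-10), so that the order of the shRNA groups was the reverse of that for Cdsn. Periplakin, encoded by Ppl and a plakin of the cornified envelope, averaged 5.85 ± 0.09 in VEGF-up cells, 6.80 ± 0.15 in VEGF-down cells and 5.99 ± 0.06 in GFP cells, a rise of 1.76-fold in VEGF-down cells (limma adjusted p = 5.48e-06) and no call in VEGF-up cells (-0.13, limma adjusted p = 0.223). The filament linker gene Plec rose in both, by 0.23 ± 0.04 in VEGF-up cells and 0.51 ± 0.04 in VEGF-down cells (limma adjusted p = 0.00192 and 1.44e-06), the first not with spike-in scaling (adjusted p = 0.554). The plakin genes Dst (0.28) and Macf1 (0.15) and the p120-catenin gene Ctnnd1 (0.16) rose in VEGF-down cells as deposited, and with spike-in scaling all 3 were below 0 and not called. With 1 array left out, the call of Macf1 held only without GFP replicate 3, GFP replicate 4 or VEGF-down replicate 3, and that of Ctnnd1 only without GFP replicate 1, GFP replicate 3 or VEGF-down replicate 2. Dsg1a, Dsc1, Evpl and Ctnnd2 were at or below background on every array.

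Genes that act with corneodesmosin in the skin surface were largely without signal. Of 23 measured genes of the corneodesmosome and cornified envelope, 17 were at or below background on every array, and 3 (Sbsn, Dmkn and Aloxe3) were above it on every array. Sbsn, which encodes the secreted epidermal protein suprabasin, averaged 6.26 ± 0.03 in VEGF-up cells, 7.46 ± 0.11 in VEGF-down cells and 6.30 ± 0.01 in GFP cells. It rose 2.23-fold in VEGF-down cells (limma adjusted p = 1.18e-08) and was not called in VEGF-up cells (-0.04, limma adjusted p = 0.502), where Cdsn was high. In VEGF-up against GFP cells 0 of the 23 rose and 0 fell by limma at an adjusted p under 0.05. Over all probe sets 13.2% changed. At an unadjusted p under 0.05, 0 were higher and 5 lower (Klk5, Klk8, Spink5, Tgm1 and Prss8). These 5 were at or below background in every group, so nothing is read from them. In VEGF-down cells 1 rose (Sbsn) and 1, below background, fell (8.70% changed, beside 31.0% of all probe sets). Only 4 of the 23 had a group mean above background in that comparison, and 1 of them was called. At an unadjusted p under 0.05, 2 were higher in VEGF-down cells (Sbsn and Ivl, the latter with means below background). Lower were 7, all with means at or below background, so nothing is read from them.

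Keratins form the filaments that desmoplakin holds in epithelia. Of 17 keratin and other intermediate filament genes, 1 rose and 3 fell in VEGF-up cells (23.5% changed, beside 13.2% of all probe sets) and 5 rose and 4 fell in VEGF-down cells (52.9%, beside 31.0%). Krt8, a keratin of simple epithelia, averaged 2.19 ± 0.01 in VEGF-up cells, 5.66 ± 0.58 in VEGF-down cells and 2.20 ± 0.01 in GFP cells, at least 5.92-fold higher in VEGF-down than in GFP cells (limma adjusted p = 4.00e-07), since the GFP arrays were below background. Krt76, a keratin of the palate, was at least 7.64-fold higher in the same comparison (limma adjusted p = 8.53e-10). Krt19 rose in both, 1.89-fold in VEGF-up and 3.92-fold in VEGF-down cells (limma adjusted p = 0.000297 and 1.96e-07). The basal epidermal keratin gene Krt14 fell in VEGF-up cells (-0.39 ± 0.04, limma adjusted p = 0.00014) and rose in VEGF-down cells (0.89 ± 0.04, limma adjusted p = 5.63e-08), opposite to Cdsn in both comparisons. Krt7 fell in VEGF-up cells (-0.65 ± 0.08, limma adjusted p = 0.000287). Krt15 fell in both, by -0.36 in VEGF-up and -0.61 in VEGF-down cells (limma adjusted p = 0.0206 and 0.00028). Krt10 (-0.28) and the desmin gene Des (-0.49) also fell in VEGF-down cells (limma adjusted p = 0.0142 and 0.000144). Krt17, called lower there too, was below background in both groups.

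**Figure D4:**
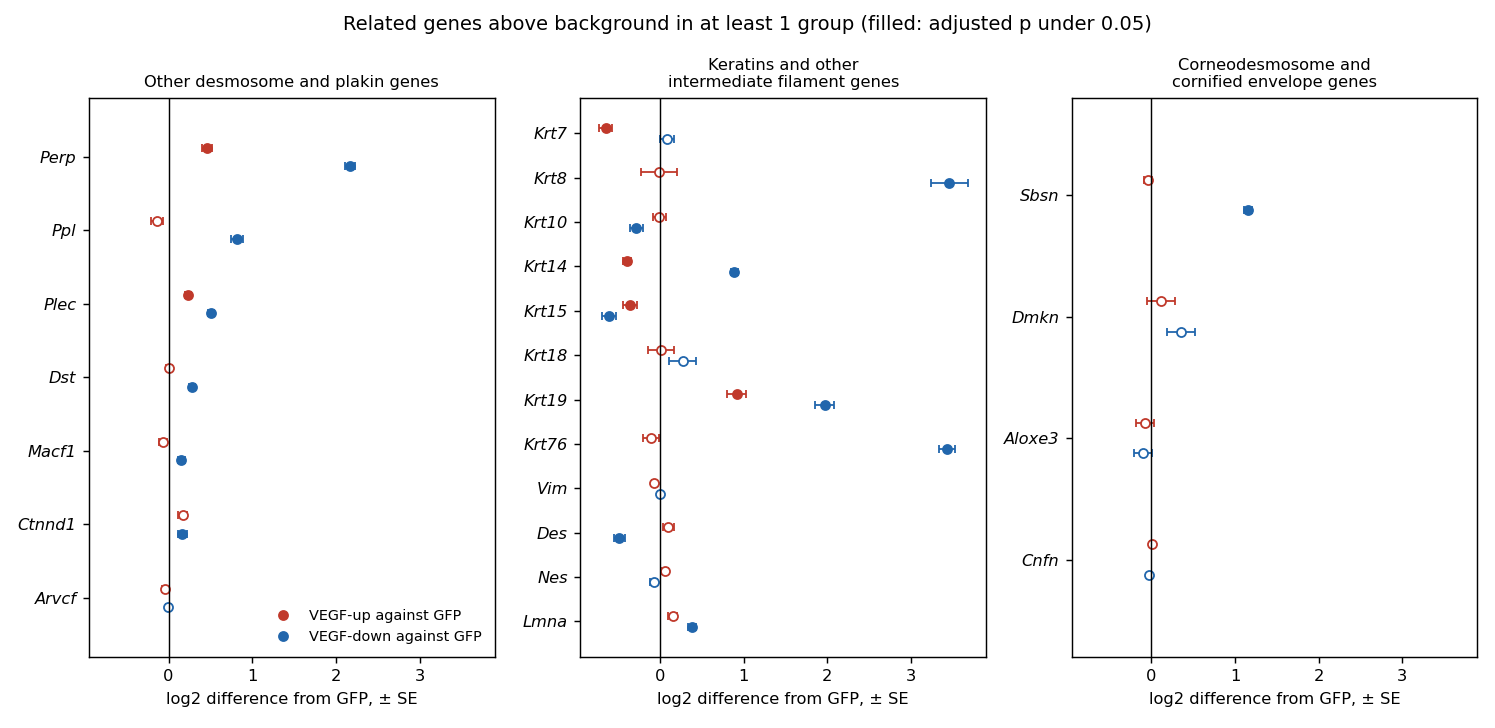
Log2 difference from GFP cells with the SE of the fit (horizontal axes) in VEGF-up cells and VEGF-down cells, for the genes of 3 lists (desmosome and plakin, keratin and intermediate filament, cornified envelope) above background in at least 1 group. Filled points passed an adjusted p of 0.05; the points of Krt8 and Krt76 in VEGF-down cells are fitted values against GFP arrays below background. Perp stands at 0.46 and 2.17, Sbsn at -0.04 and 1.15 and Krt14 at -0.39 and 0.89 in VEGF-up and VEGF-down cells.

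The remaining lists cover the neighbouring junction types and the transcription factors of epithelial and mesenchymal states. Of 16 adherens junction genes, 1 rose and 3 fell in VEGF-up cells (25% changed, beside 13.2% of all probe sets). In VEGF-down cells 3 rose and 4 fell (43.8%, beside 31.0%). The T-cadherin gene Cdh13 fell in both (-0.50 in VEGF-up and -0.39 in VEGF-down cells, limma adjusted p = 0.000252 and 0.000421), as did the beta-catenin gene Ctnnb1 (-0.13 and -0.10). Nectin2 (0.13) rose in VEGF-up cells as deposited and was below 0 with spike-in scaling; its call was also lost without GFP replicate 1, GFP replicate 2, VEGF-up replicate 1 or VEGF-up replicate 3. Afdn (0.57), whose product binds nectins, rose in VEGF-down cells, where Cdh3 fell below background and was at least 1.18-fold lower. Of 24 tight and gap junction genes, 2 rose and 6 fell in VEGF-up cells (33.3% changed, beside 13.2%). In VEGF-down cells 3 rose and 8 fell (45.8%, beside 31.0%). Of those 8, only 6 had a mean above background in either group. Claudin 1, encoded by Cldn1, had the same order of groups as Cdsn, at 5.22 ± 0.14 in VEGF-up cells, 4.18 ± 0.07 in VEGF-down cells and 4.60 ± 0.10 in GFP cells (SD, n = 4 each), a log2 difference from GFP cells of 0.62 ± 0.07 and -0.41 ± 0.07 (limma adjusted p = 0.000179 and 0.000926). Occludin, Ocln, fell in both (-0.74 and -0.61), Cgn fell in VEGF-up cells (-0.63), and in VEGF-down cells Jam3 fell (-0.99) while the scaffold gene Tjp1 rose (0.56). Of 17 transcription factor genes, 1 rose and 1 fell in VEGF-up cells (11.8% changed, beside 13.2%). In VEGF-down cells 5 rose and 2 fell (41.2%, beside 31.0%). Klf4, a factor of epidermal barrier formation, rose in VEGF-up cells (0.29 ± 0.07, limma adjusted p = 0.0259) and fell in VEGF-down cells (-0.61 ± 0.07, limma adjusted p = 7.37e-05), but its rise was lost with spike-in scaling, with the replicate number as a block and, of 8 arrays left out in turn, with all but GFP replicate 4 and VEGF-up replicate 2. Klf5 (0.92), Zeb2 (0.71), Trp63 (0.64) and Twist1 (0.53) rose in VEGF-down cells, and Twist1 fell in VEGF-up cells (-0.20).

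Set directly against VEGF-down cells, VEGF-up cells had lower levels of Perp (-1.71), Ppl (-0.95), Plec (-0.28) and Sbsn (-1.20), of Krt14 (-1.28) and of the factors Klf5 (-0.97) and Twist1 (-0.73), all past the limma threshold. Krt8 and Krt76 were below background in VEGF-up cells and at least 5.92-fold and 7.64-fold lower there. Afdn (-0.47), Nectin3 (-0.36) and Cgn (-0.71) were lower too, and Cldn1 (1.04), Jam3 (1.02), Klf4 (0.90) and Cdh11 (0.22) were higher in VEGF-up cells. With spike-in scaling Plec and Nectin3 no longer passed (adjusted p = 0.176 and 0.0573).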

How the data were processed

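RNA of 12 samples was measured on arrays. The authors deposited an intensity per probe set and sample, computed by GCRMA according to the submitters' processing notes, and on a linear scale as read from the values (3.04 to 17470.06). The authors' deposited tables give, per the file headers, a signed fold change and T-statistic (scores) and a p-value and q-value per listed gene, from a test not given in the sources used here.

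Log2 was taken without an offset. Of 17370 probe sets 64 are controls; the other 17306 were tested. Of these, 16464 carry 1 gene symbol, all matched by Entrez number to RefSeq (GRCm38.p6), 0 carry several and 842 carry none. A model with the 3 group means was fitted in limma to the 12 arrays together, with version 3.58.1 (R 4.3.3; lmFit, eBayes with a variance trend), two-sided, with Benjamini-Hochberg adjustment over all 17306 and a threshold of 0.05. "Rose" and "fell" are used for what passed. The fit was tested on simulated data first. Where a group's mean or all its arrays are at or below background, the fold is given against the background level as "at least".

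The members, gene lists and background class were chosen with earlier results of these data known. Named genes are the 10 members, Vegfa, list genes with at least the 3 largest called differences per list and comparison, the 5 measured neighbours of Cdsn on each side and the 5 genes most like it. Same-numbered arrays did not deviate together (correlations of residuals from -0.09 to 0.16), so no block was used. The number of arrays limits the precision. Alternatives were quantile normalization, median centring, scaling to 12 poly-A spike-in probe sets, an offset of 16, only probe sets above background, no variance trend, only the 2 groups compared, a replicate block and leaving out each array.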

Additional observations from a re-analysis of the deposited data

Results flagged for a closer look

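Single arrays stood apart from the other 3 of their group in 13 of 154 gene and group combinations, where the gap to the nearest array exceeded Dixon's 95% critical share of the group's range; chance gives about 1 in 20. Among the members, Jup was low on VEGF-up replicate 1 (7.30), and Dsc3 was high on VEGF-down replicate 3 (3.21) and on GFP replicate 4 (3.19), the only arrays on which Dsc3 passed the background level. Vegfa was high on GFP replicate 2 (7.37). Among related genes of VEGF-down cells, Ppl was high on replicate 4 (7.02), Dst on replicate 1 (9.59) and Arvcf on replicate 2 (5.19), while Jam3 (6.95) and Ocln (5.04) were low on replicate 1. Trp63 was low on VEGF-up replicate 2 (5.54). On GFP arrays Arvcf was high on replicate 3 (5.19), Krt14 was low on replicate 3 (4.02) and Chchd10 was high on replicate 1 (5.14). No such array was found for Cdsn, Dsp, Pkp2 or Pkp4.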

How the results depend on the processing

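Since Cdsn was chosen on these arrays, its values under the alternatives are a description. With an array left out its differences ranged from 1.67 to 1.78 for VEGF-up against GFP, from -1.56 to -1.49 for VEGF-down against GFP and from 3.19 to 3.30 for VEGF-up against VEGF-down cells. In the same order of comparisons they were 1.55, -1.12 and 2.67 with an offset of 16, which shrinks low levels by construction, and 1.56, -1.83 and 3.40 with spike-in scaling. Vegfa was at 0.17 (adjusted p = 0.1002) in VEGF-up against GFP cells with spike-in scaling. Members called higher in VEGF-up against GFP cells numbered 1 with spike-in scaling, beside 1.03% of all probe sets. Members called lower there numbered 2 with spike-in scaling (beside 18.4%), 0 with only the 2 groups compared (beside 5.39%) and 0 to 1 with an array left out. In VEGF-down against GFP cells, members called higher numbered 0 with spike-in scaling (beside 3.89%) and 1 with only the 2 groups compared (beside 13.0%). They numbered 3 (Jup added) with quantile normalization (beside 15.0%) or only probe sets above background (beside 24.3% of those), and 1 to 2 with an array left out. Members called lower numbered 5 with median centring and 7 with spike-in scaling, beside 47.2% and 83.1% of all probe sets, then 1 to 2 with an array left out. They numbered 1 with no variance trend (beside 14.8%), only the 2 groups compared (beside 13.6%), quantile normalization (beside 14.6%) or a replicate block (beside 14.4%). With only probe sets above background 1 was called lower too (beside 23.7% of those). The block changed no other count of members. Between VEGF-up and VEGF-down cells, members called higher numbered 6 with median centring, beside 52.1% of all probe sets. Members called lower numbered 0 with spike-in scaling, beside 7.23%. List genes called lower in VEGF-down against GFP cells numbered 59 of 108 with median centring (54.6%, beside 47.2% of all probe sets) and 83 with spike-in scaling (76.9%, beside 83.1%). In VEGF-up against GFP cells 3 were called higher (2.78%, beside 1.03%) and 25 lower (23.1%, beside 18.4%) with spike-in scaling, and between the shRNA groups 61 with median centring (56.5%, beside 52.1%) and 16 with spike-in scaling (14.8%, beside 19.7%) were called higher. Of the changes over all probe sets, rises made up 50.9% in VEGF-up and 47.1% in VEGF-down against GFP cells and 49.3% between the shRNA groups as deposited; they made up 60.2%, 23.8% and 78.3% with median centring and 5.32%, 4.48% and 73.2% with spike-in scaling. The difference of Dsc2 in VEGF-down against GFP cells turned to 0.0017 with quantile normalization. Probe sets at or below background gave no value in the fit without them. The cause of these shifts was not tested.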
